A study of Macaca fascicularis with 10 samples.

Results

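HSPA8 and HSP90AA1 encode abundant cytosolic chaperones, and both were chosen by name, as 2 of the 7229 genes in a table of allele-specific read counts. The RNA came from the dorsal raphe, a brainstem nucleus that holds most serotonin neurons projecting to the forebrain, in 10 female cynomolgus macaques (Macaca fascicularis). All 10 are daughters with a labelled mother and father. They form 1 group with no treatment, with no age in the labels. For each gene measured in a daughter the table holds a maternal and a paternal count, and the paternal share is the percent of both that lies in the paternal column. Each gene had counts in 9 of the 10 daughters. HSPA8 had no value in daughter 1, and HSP90AA1 had none in daughter 9.

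HSPA8 is the constitutive cytosolic HSP70. It folds new proteins, strips clathrin coats from vesicles at synapses, and delivers marked proteins to lysosomes. HSP90AA1 is the stress-inducible cytosolic HSP90, which holds kinases and steroid hormone receptors, among them the glucocorticoid receptor, in a state that can be activated. Both work with J-domain proteins and with co-chaperones that pass clients from HSP70 to HSP90. Heat shock factor HSF1 raises many chaperone genes under stress. Both genes are autosomal, and most autosomal genes are read from the maternal and the paternal copy.

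Depth differed widely between daughters, from 30090 allelic reads in daughter 1 to 999471 in daughter 6, and the paternal column held between 49.3% and 50.4% of them. Titles carry the prefix 10203 in daughters 1 to 6 and 10480 in daughters 7 to 10, and values were also compared by this prefix, whose meaning the labels do not give. The prefix goes in part with different parents, since none of the mothers of daughters 7 to 9 is a mother in the other prefix. The father of daughters 1 and 7 and the mother of daughters 6 and 10 are parents in both prefixes. No daughters of different prefix share both parents, so prefix and parents cannot be fully told apart. TPH2, the serotonin synthesis enzyme that marks the nucleus, had 10 or more reads in 7 daughters, DDC in 5, the vesicle transporter SLC18A2 in 3 and the serotonin transporter SLC6A4 in 2. The endothelial gene VWF had them in 10 daughters and TTR, a choroid plexus gene, in 6. FEV and markers of oligodendrocytes, astrocytes and microglia were not analysed here. Since RNA came from whole tissue, the cells in which the chaperone reads arose cannot be told apart.

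Reads of HSPA8 were divided nearly evenly between the parents over the daughters as a whole, with clear departures in single animals. The paternal share was lowest in daughter 8, at 40.9%, had a median of 51.2%, and was highest in daughter 2, at 54.9%. It lay above 50% in 5 daughters and below it in 4, and 7 of 9 daughters lay between 45% and 55%. The mean was 49.1% ± 4.52 (SD, n = 9), and the share of all 42580 reads pooled was 49.8%. Of the daughters with the most reads, daughter 5 had 4166 maternal and 4412 paternal reads (51.4%), daughter 4 had 3544 and 3496 (49.7%), and daughter 6 had 3317 and 3481 (51.2%). In these 3 animals the alleles were within 2 percentage points of equality.

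HSP90AA1 was divided less evenly in single daughters, and its shares ranged more widely. The lowest paternal share was 42.4% in daughter 7, the median was 51.7%, and the highest was 64.9% in daughter 6. Shares were above 50% in 5 daughters and below in 4, and 5 of 9 lay between 45% and 55%. The mean was 51.7% ± 7.70 (SD, n = 9), and the pooled share of 28482 reads was 52.0%. Daughter 6 had 1064 maternal and 1964 paternal reads, and without that animal the mean was 50.1%. Daughter 1 was also high, at 62.4%, but on 93 reads, with a 95% Wilson interval from 52.2% to 71.5%. Wilson intervals cover counting error only, since sequenced reads are not independent molecules.

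**Figure D1:**
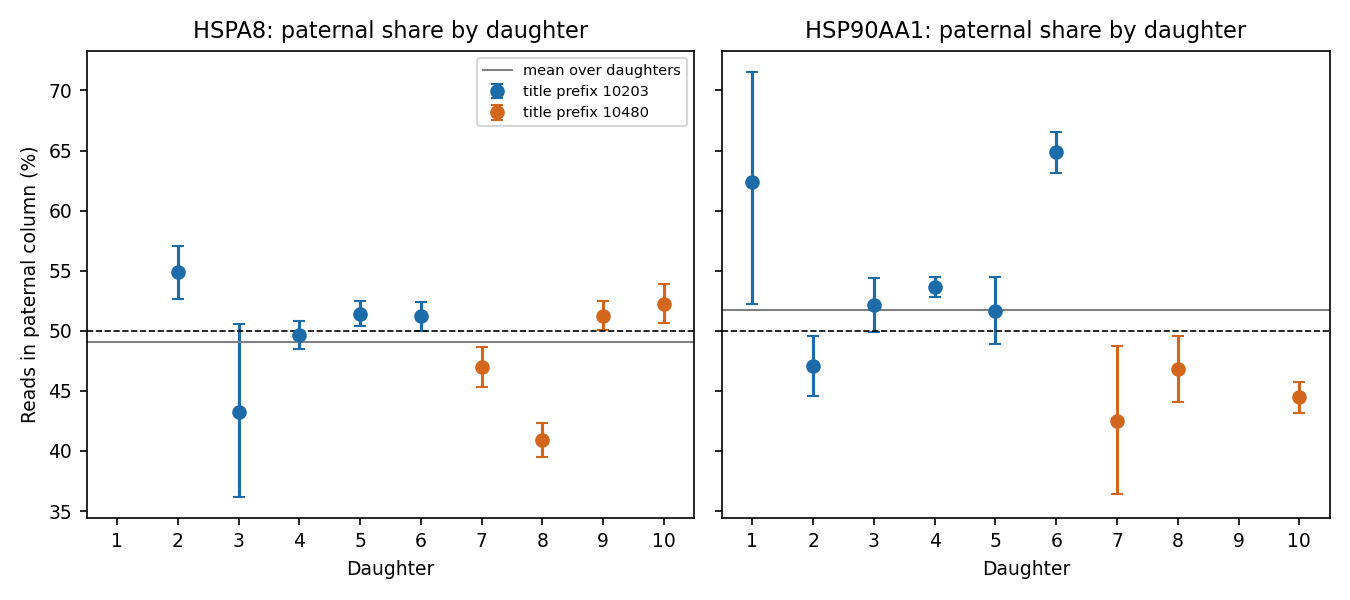
Paternal share of HSPA8 (left) and HSP90AA1 (right) in each daughter, in percent of allelic reads. Points are daughters coloured by title prefix, bars are 95% Wilson intervals, the dashed line is an equal share and the grey line the mean over 9 daughters; HSPA8 is lowest in daughter 8 (40.9%) and HSP90AA1 highest in daughter 6 (64.9%).

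The first comparison asked whether the allele of 1 parent was read more across daughters. Neither gene was called. For HSPA8 the log2 difference of paternal over maternal was -0.046 ± 0.076 (SE), with an edgeR adjusted p of 1 over 2981 genes (unadjusted 0.559). For HSP90AA1 it was 0.088 ± 0.13 (SE), with an edgeR adjusted p of 1 (unadjusted 0.510). In that test 0% of all genes were called, which is the background against which the 2 results are read. The imprinted gene DLK1, on the paternal side in 4 of 5 daughters, was not called either (log2 difference 2.68 ± 1.81, SE, edgeR unadjusted p = 0.186). The absence of a call is thus no measure of equal alleles. The fit used zeros for the daughter without counts, which carries no information on the ratio. The sign of each estimate rested on 1 animal. Without daughter 8 the value of HSPA8 was 0.016, and without daughter 6 that of HSP90AA1 was -0.015.

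Single daughters were then tested for unequal alleles, by an exact two-sided binomial test of each gene with 20 or more reads, adjusted by the Benjamini-Hochberg method within the daughter. HSPA8 was unequal in 3 of 9 daughters and HSP90AA1 in 3 of 9, with no daughter in common. Tested against the daughter's own overall paternal share in place of 50%, HSPA8 was unequal in 4, with daughter 10 added, and HSP90AA1 in 3. Of 22693 measurements of all genes, 10.4% were called, but the call follows depth, and among measurements of at least 1000 reads 36% were called. For the chaperones, 6 of 15 such measurements were called (40%), close to that background. Taken by animal, daughter 1 had the smallest share of genes called, 5.24%, then daughter 9 (7.91%), daughter 2 (8.14%), daughter 8 (8.51%) and daughter 7 (8.82%). Daughter 3 had 10.3%, daughter 10 had 10.8%, daughter 4 had 11.9%, and daughters 5 and 6 had 12.3% each. The number of calls in the chaperones is thus near that of other deeply read genes.

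The calls of HSPA8 fell on both sides. In daughter 8 the gene had 2630 maternal and 1821 paternal reads, a share of 40.9% (Wilson interval 39.5% to 42.4%, exact binomial adjusted p = 2.19e-31). None of the 9 other genes with as many reads in that animal lay farther from equality, and 2 of its 28 genes with 1000 or more reads did. Daughter 7, which has the same father, had 1815 maternal and 1608 paternal reads, a share of 47.0% (45.3% to 48.7%, exact binomial adjusted p = 0.00717). Daughter 2 lay on the paternal side with 902 and 1096 reads, a share of 54.9% (52.7% to 57.0%, exact binomial adjusted p = 0.000466). In daughters 7 and 2 the distance from equality was thus small, at 3.02 and 4.85 percentage points.

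In the other 6 daughters HSPA8 did not pass the threshold. Daughters 5, 6, 9 and 10 have Wilson intervals that leave out an equal share before adjustment for the number of genes. Tested against 50%, none of them passed after it. The interval of daughter 5 was 50.4% to 52.5% (exact binomial adjusted p = 0.0616). Daughter 10 had 1721 maternal and 1884 paternal reads (52.3%, exact binomial adjusted p = 0.0615, and 0.00448 against that daughter's overall share) and daughter 9 had 3173 and 3336 (51.3%, adjusted p = 0.267). Daughter 3 was at 43.3%, on only 101 maternal and 77 paternal reads, and its interval from 36.2% to 50.6% includes an equal share. At that depth a share as low as the 40.9% of daughter 8 lies inside the interval.

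The largest departure in a single daughter, of both genes, was that of HSP90AA1 in daughter 6. Its share of 64.9% there had a Wilson interval from 63.1% to 66.5% (exact binomial adjusted p = 4.3e-58), which amounts to a log2 ratio of 0.88. None of the 23 other genes with as many reads in that daughter lay farther from equality, and 2 of the 100 genes with 1000 or more reads did. Over all daughters, 18 of 494 measurements with 1000 or more reads were farther out. Daughter 4, with 6171 maternal and 7135 paternal reads, was at 53.6% (52.8% to 54.5%, exact binomial adjusted p = 5.4e-15). Daughter 10 lay on the maternal side, with 3273 and 2620 reads and a share of 44.5% (43.2% to 45.7%, exact binomial adjusted p = 1.45e-15). At these read numbers departures of 3.62 and 5.54 percentage points passed the threshold.

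The remaining daughters did not pass for HSP90AA1. Daughter 3 had 887 maternal and 967 paternal reads (52.2%), and daughter 5 had 604 and 646 (51.7%). Daughters 2 and 8 leaned to the maternal side, at 47.1% of 1551 and 46.8% of 1262 reads, with exact binomial adjusted p of 0.166 and 0.189. Daughter 7 was at 42.4% of 245 reads, with an interval from 36.4% to 48.7% and an exact binomial adjusted p of 0.171. Daughters 1, 2, 7 and 8 have intervals that leave out an equal share before adjustment for the number of genes, but none passed after it.

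**Figure D2:**
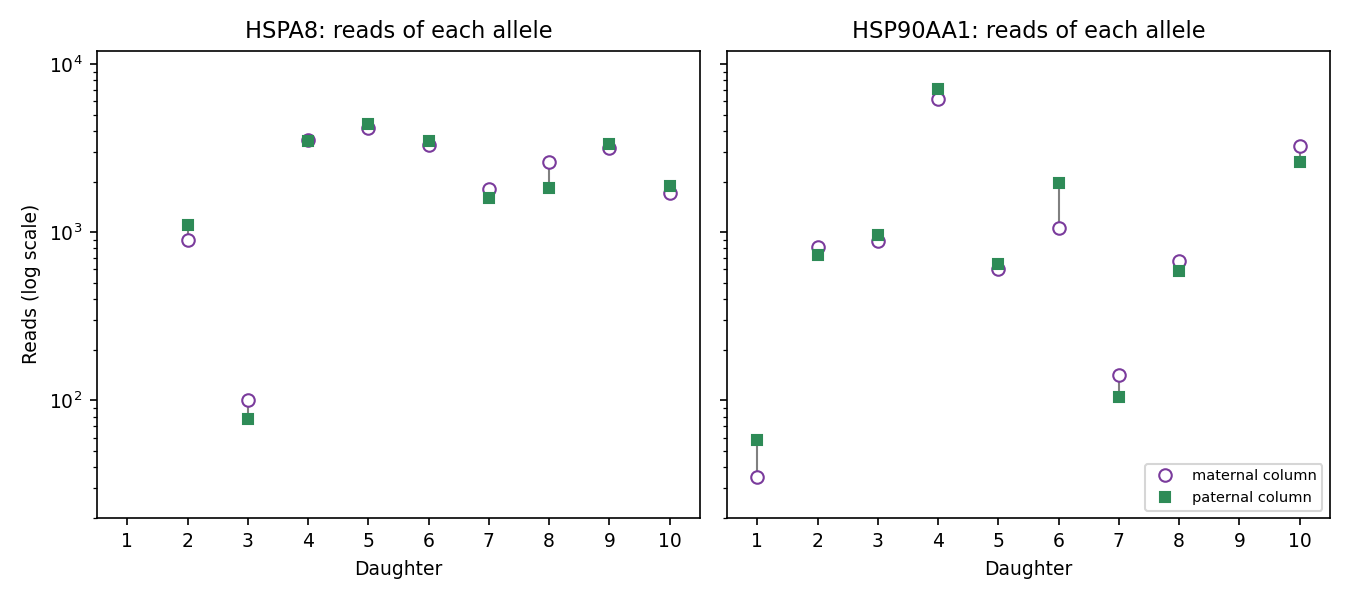
Reads in the maternal column (open circles) and the paternal column (filled squares) of HSPA8 and HSP90AA1 in each daughter, on a log axis, with a line joining the alleles of 1 animal. The columns nearly coincide in most daughters and stand apart for HSPA8 in daughter 8 (2630 and 1821 reads) and for HSP90AA1 in daughter 6 (1064 and 1964 reads).

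The spread between daughters was larger than counting alone gives for both genes. Binomial counting at the observed read numbers would give an SD of 1.44 percentage points for HSPA8 and 2.25 for HSP90AA1, against observed values of 4.52 and 7.70, or 3.14 and 3.42 times as much. The median of this ratio was 1.40 over the 1108 genes that reached 10 reads in at least 8 daughters. In absolute terms both genes varied less than most, since 89.4% of those genes had a higher SD than HSPA8 and 62.5% a higher SD than HSP90AA1. Most of those genes have far fewer reads, and their median SD was 9.12 points. Among the 26 genes with 10000 or more reads in all, the median SD was 3.93 points, 10 exceeded HSPA8 and 5 exceeded HSP90AA1. Of the 26, 9 are transfer RNA genes with a median SD of 1.32, and the other 17 had a median of 4.91 points, above HSPA8 and below HSP90AA1.

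**Figure D3:**
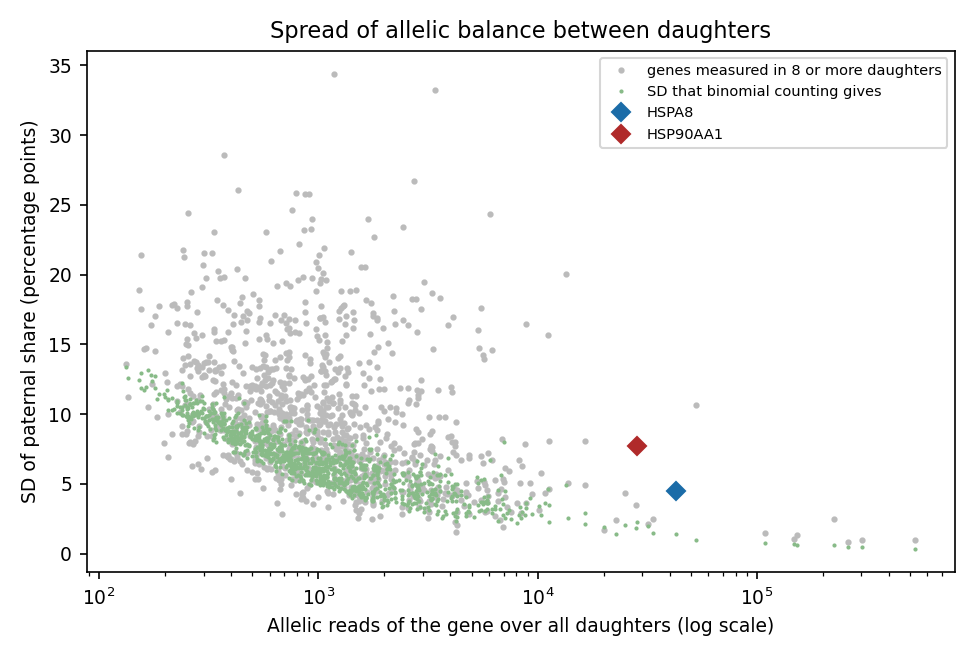
SD of the paternal share between daughters (percentage points) against the reads of the gene summed over daughters (log axis), for 1108 genes measured in 8 or more daughters (grey) with the SD that binomial counting gives for each (green). HSPA8 (4.52) and HSP90AA1 (7.70) lie above their counting SDs of 1.44 and 2.25.

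The genes were compared with each other in the 8 daughters that measured both. The share of HSP90AA1 minus that of HSPA8 was 1.57 ± 7.92 percentage points (SD, n = 8), higher in 5 of 8 daughters (exact sign-flip permutation test, two-sided, p = 0.586). Distance from equality differed by 1.57 ± 6.19 points (SD, n = 8), also larger for HSP90AA1 in 5 of 8 (exact sign-flip permutation p = 0.531). Neither difference exceeded the spread between daughters. Without daughter 6 both turned slightly negative, at -0.156 points each. The wider range of HSP90AA1 is thus a description of the 9 animals and not a tested difference.

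No relation was detected between the sides that the 2 genes took. The log2 allelic ratios of HSPA8 and HSP90AA1 had Pearson's r = 0.144 over 8 daughters (exact permutation p = 0.745; adjusted over the 2 relations computed, 0.988) and a Spearman's rho of 0 (exact permutation p = 1). Without daughters 3 and 8, the farthest from the median of HSPA8, r was 0.0993, and within prefix 10203 it was -0.0936 over 5 daughters. Prefix 10480 has 3 such daughters, too few for a value.

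By title prefix, HSP90AA1 lay on different sides. Its share was 55.3% ± 6.85 in prefix 10203 (SD, n = 6), above 50% in 5 of 6 daughters, and 44.6% ± 2.19 in prefix 10480 (SD, n = 3), below 50% in 3 of 3. The values, 47.1% to 64.9% against 42.4% to 46.8%, did not overlap, but daughters 2 and 8 at the edges had nearly the same Wilson intervals, 44.6% to 49.6% and 44.1% to 49.6%. Of the 60 genes measured in as many daughters of each prefix, 3 (5%) had values that did not overlap. HSP90AA1 itself is among these 3. The interaction in edgeR was a log2 difference of -0.60 ± 0.21 (SE), unadjusted p = 0.0150 and adjusted p of 1, in a test that called 0.0335% of genes. HSPA8 had 50.1% ± 4.26 (SD, n = 5) and 47.9% ± 5.16 (SD, n = 4), with overlapping values (in 1.57% of 383 genes measured alike they did not overlap) and an interaction of -0.15 ± 0.15 (SE, edgeR adjusted p of 1). Neither interaction passed the threshold.

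Some daughters share a parent and so may share a haplotype at these genes. Daughters 4 and 5, with 1 father, had close shares, at 49.7% and 51.4% for HSPA8 and 53.6% and 51.7% for HSP90AA1. Daughters 7 and 8, with another father, both lay on the maternal side, at 47.0% and 40.9% for HSPA8 and 42.4% and 46.8% for HSP90AA1. Daughter 1 has the same labelled father as those, and her HSP90AA1 share of 62.4% lay on the other side. Daughters 6 and 10, with 1 mother, had like shares of HSPA8, at 51.2% and 52.3%. For HSP90AA1 they lay on opposite sides, at 64.9% and 44.5%. Likeness within these pairs was not tested.

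Levels are given as CPM, the gene's reads scaled to a common total of the daughter's allelic reads. Transfer RNA genes are in that total, such as TRNAG-CCC with 527879 reads over all daughters. No source states how reads were assigned to alleles, so these levels are of allelic reads and are not taken as expression. HSPA8 was lowest in daughter 3, at 274 CPM (exact Poisson interval 235 to 317), had a median of 8377 CPM and was highest in daughter 9, at 15584 CPM (15207 to 15967). The lowest and highest differed 56.9-fold. Poisson intervals, like the Wilson intervals, cover counting error only. From low to high the order was daughters 3, 2, 6, 10, 4, 5, 7, 8 and 9, and only the intervals of neighbours 7 (12078 to 12919 CPM) and 8 (12407 to 13161 CPM) overlapped. HSP90AA1 ranged from 894 CPM in daughter 7 (786 to 1013), with a median of 3030, to 15834 CPM in daughter 4 (15566 to 16105), which is 17.7-fold. Daughter 5 followed at 1363 CPM. Daughters 1, 2, 3 and 6 lay between 2835 and 3091 CPM, where each interval overlaps that of its neighbour in the order. Daughter 8 came next at 3624 CPM, inside the wide interval of daughter 1 (2495 to 3786 CPM), then daughter 10 at 11818. No relation of the log2 levels of the 2 genes was detected over 8 daughters (r = 0.0048, exact permutation p = 0.988, rho = -0.0476, exact permutation p = 0.935). Without daughters 2 and 3, r was -0.531, and within prefix 10203 it was 0.151 over 5 daughters.

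The neighbourhood of HSP90AA1 was read next, since DLK1, an imprinted gene, lies on the same chromosome. In the order of the RefSeq gene table HSP90AA1 is on chromosome 7, with 67 annotated genes between it and DLK1. DLK1, a Notch ligand homologue normally read from the paternal copy, was 98.6% paternal over 72 reads in daughter 3 and 96.8% paternal over 31 reads in daughter 10. It was wholly paternal (100%) over 53 reads in daughter 4 and over 23 reads in daughter 5. In the same 4 daughters HSP90AA1 stood between 44.5% and 53.6%. In daughter 6, DLK1 was on the reverse side, at 1.74% of 115 reads. That was also the daughter with the most unequal HSP90AA1 (64.9%), on the other side from DLK1.

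Other measured genes around HSP90AA1 did not all move with it in daughter 6. TRAF3, an adaptor of immune receptors with 16 annotated genes between it and HSP90AA1, leaned the same way, at 68.0% of 172 reads (Wilson interval 60.7% to 74.5%, exact binomial adjusted p = 5.71e-05). EML1, a microtubule-binding protein gene beyond DLK1, leaned the opposite way, at 11.9% of 84 reads (exact binomial adjusted p = 1.42e-11). CDC42BPB, a kinase gene beyond TRAF3, was at 45.0% of 778 reads (exact binomial adjusted p = 0.0470). CKB, brain creatine kinase, was at 49.7% of 2634 reads. The departures of daughter 6 thus stood on both sides among genes of 1 chromosome. EML1 was between 45.5% and 55.9% in the other 8 daughters, and TRAF3 between 44.0% and 59.3% in the other 7.

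HSPA8 is on chromosome 14 in that table. Between it and its measured neighbours lie from 7 annotated genes (UBASH3B) to 54 (ESAM). Those with 20 or more reads did not pass the test in daughter 8, where HSPA8 was at 40.9%. There, the sorting receptor gene SORL1 was at 48.8% of 678 reads and VWA5A at 50.3% of 531. UBASH3B was at 31.9% of 47 reads and the sodium channel subunit SCN3B at 43.6% of 39, both on few reads. ESAM, an endothelial adhesion gene, had 73.3% of 30 reads and the glutamate receptor subunit GRIK4 72.2% of 18. Of the 6 neighbours SORL1 had the smallest SD, with 49.4% ± 1.71 (SD, n = 10). By RefSeq annotation, 2 snoRNA genes overlap the HSPA8 locus, and no annotated gene overlaps HSP90AA1.

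**Figure D4:**
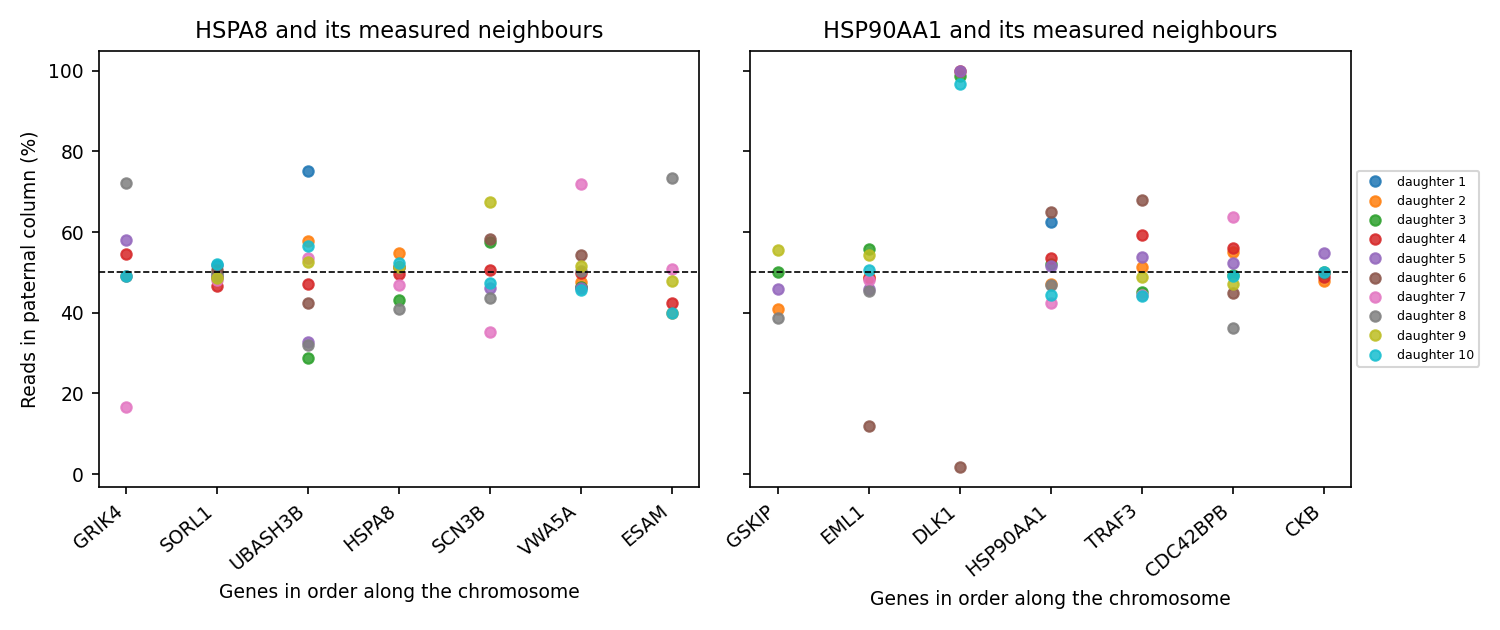
Paternal share (percent, 10 or more reads) of HSPA8, HSP90AA1 and the nearest measured genes on each side, in order along the chromosome and not to distance, with 1 point per daughter in its own colour. In daughter 6 DLK1 (1.74%) and EML1 (11.9%) are low while HSP90AA1 (64.9%) and TRAF3 (68.0%) are high.

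Genes were ranked by how much their log2 allelic ratio followed that of each chaperone over 8 or more daughters. For HSP90AA1, among 692 genes, the highest r was 0.940 for the lipid transporter gene ABCA3 (8 daughters), then 0.883 for the glycolytic enzyme gene GAPDH (9 daughters) and 0.870 for TACC2 (8 daughters). ABCA3 had 73.2% of 149 reads in daughter 6, and GAPDH 60.1% of 3122. GAPDH was also high in daughter 1, at 64.8% of 644 reads, and low in daughter 7 (31.0%) and daughter 10 (33.3%). These are the daughters at the extremes of HSP90AA1. For HSPA8, among 1040 genes, the highest r was 0.911 for C18H18orf8, 0.890 for DCHS2 and 0.823 for PLK1S1, over 8 daughters each. DCHS2 had as few as 10 reads in a daughter. The highest of many values over so few animals is a description, and the points share the daughters' libraries.

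Other chaperones were drawn from 6 lists of HSP70 and HSP90 relatives, J-domain proteins, co-chaperones, chaperonins with small heat shock proteins, and factors or partners. Apart from HSPA8 and HSP90AA1 these held 120 genes, of which 50 were in the table and 23 had reads enough to be tested between the parents. None of the 23 was called in either direction, against 0% of all genes, with a median log2 difference of -0.064 beside -0.0069 over all genes. In single daughters 13 of 188 measurements were unequal (6.91%), 4 to the paternal and 9 to the maternal side, against 10.4% of all genes. Their median distance from equality was 4.19 points, beside 5.41 over all genes. Distance, like the call, follows depth, and was 2.11 points over all measurements with 1000 or more reads. The lists were not matched to all genes by reads. These values, and those of the single lists below, thus do not show that the relatives are more even than other genes.

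Among named HSP70 and HSP90 relatives no daughter passed the test. HSPH1, a nucleotide exchange factor for HSP70, had 50.8% ± 1.61 (SD, n = 5), from 49.0% to 52.8%. HYOU1, its counterpart in the endoplasmic reticulum, had 47.0% ± 5.48 (SD, n = 10), with 35.7% to 52.7%. The 35.7% was of 14 reads in daughter 1, too few for the test. HSPH1 was unequal in 0 of 5 daughters tested and HYOU1 in 0 of 9. Beside HSPA8, 0 of 30 measurements of the HSP70 list were unequal, against 10.4% of all genes, which at so few measurements is not a result about these relatives. HSP90B1, the HSP90 of the endoplasmic reticulum, had 49.5% ± 2.43 (SD, n = 8) and 0 of 8 unequal. In daughter 6, where HSP90AA1 was at 64.9%, HSP90B1 was at 47.6% of 931 reads.

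J-domain proteins and co-chaperones each had 4 unequal measurements, of 72 (5.56%) and 41 (9.76%), against 10.4% of all genes. GAK, which recruits HSPA8 to clathrin coats, had 50.4% ± 5.22 (SD, n = 9), and DNAJB6 had 48.1% ± 6.14 (SD, n = 6). DNAJA3, a mitochondrial J-domain protein, had 18.9% of 37 reads in daughter 8 (exact binomial adjusted p = 0.00348) and 48.1% to 57.1% elsewhere. DNAJC12, a J-domain protein that binds the aromatic amino acid hydroxylases, TPH2 among them, was unequal in daughter 3, at 66.8% (232 reads), and on the other side in daughter 6, at 27.5% (178 reads). Daughter 4, at 39.1% (87 reads), did not pass. DNAJC15 was unequal in daughter 6 alone, at 57.4% of 401 reads. STIP1, which links HSP70 to HSP90, had 47.1% ± 4.66 (SD, n = 5). SGTA had 53.6% ± 5.64 (SD, n = 9), above 50% in 7 of 9 daughters (edgeR unadjusted p = 0.0445, adjusted p of 1). SUGT1, a co-chaperone of HSP90, was 97.0% paternal over 134 reads in daughter 2 and 42.1% to 52.3% in the other 5. ST13, which binds HSP70 and takes part in the transfer of clients to HSP90, was unequal in both daughters tested, at 36.2% (301 reads) in daughter 9 and at 22.2% (239 reads) in daughter 10. AHSA2 was unequal in daughter 5, at 30.2% of 53 reads (exact binomial adjusted p = 0.0463).

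Of the chaperonin list, 1 of 18 measurements was unequal (5.56%), against 10.4% of all genes. CCT2 and CCT7, subunits of the cytosolic chaperonin, had 51.2% ± 3.54 and 48.7% ± 4.76 (SD, n = 7 each). The small heat shock protein gene CRYAB was measured in 2 daughters, at 38.8% of 152 reads and 42.8% of 442, the latter unequal (exact binomial adjusted p = 0.0267). HSF1 had 50.2% ± 7.36 (SD, n = 7) and was unequal in 0 daughters. The mineralocorticoid receptor NR3C2, an HSP90 client, had 57.4% ± 4.46 (SD, n = 4), on only 133 reads in all. It was unequal in 0 of 4 daughters, and binomial counting alone would give an SD of 8.85 points. LAMP2, the X-linked lysosomal receptor for proteins that HSPA8 delivers, was called most often of the named partners, at 80.3% in daughter 4 and 22.6% in daughter 10, with 4 of 7 daughters called. Of the list of factors and partners, 4 of 19 measurements were unequal (21.1%), against 10.4% of all genes, and all 4 were of LAMP2.

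**Figure D5:**
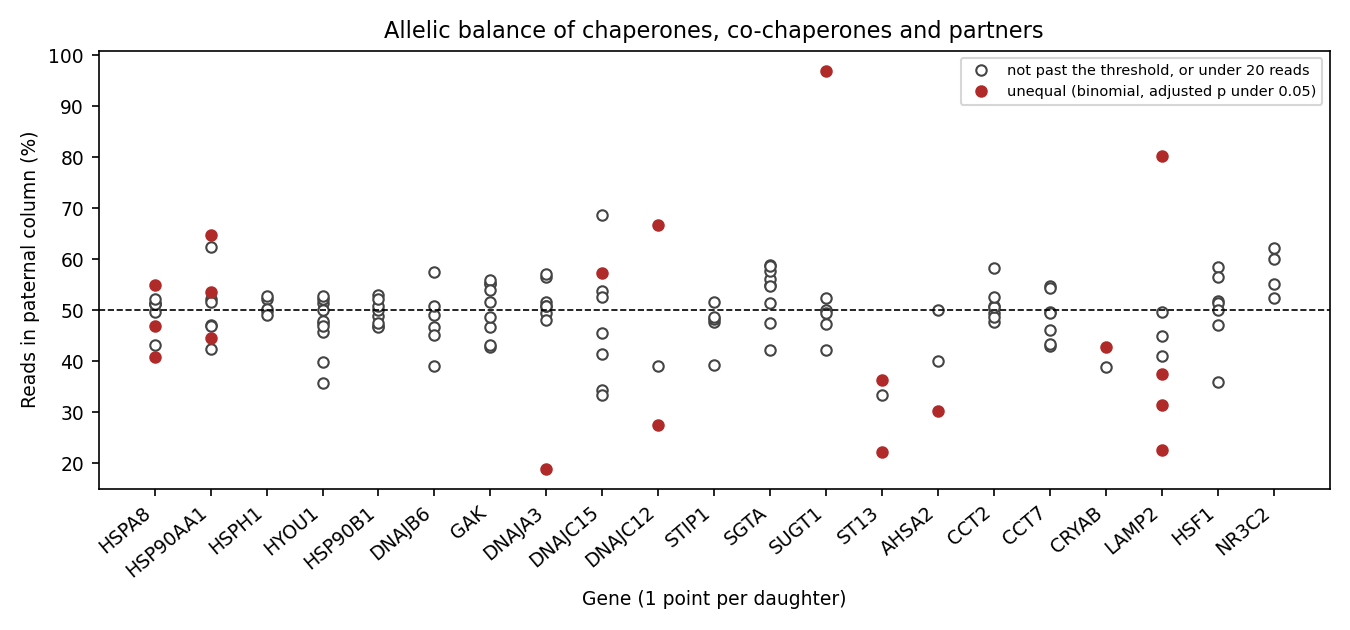
Paternal share (percent, 10 or more reads) of HSPA8, HSP90AA1 and the most-read or unequal members of the 6 chaperone lists, 1 point per daughter. Filled red points passed the binomial test at an adjusted p of 0.05; HSPH1, HYOU1 and HSP90B1 have none, and LAMP2 has 4.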

How the data were processed

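Per the labels' protocols, ribosomal RNA was depleted and stranded libraries were read as pairs of 101 cycles. Novoalign is the aligner named in the submitters' processing notes. The authors deposited raw counts of reads per gene and parental allele, and the file headers name the build macFas5. How reads were phased and filtered is not stated. The name of the deposited table says that redundant genes were summed. HSPA8 and HSP90AA1 have near-identical pseudogene copies, so the assignment of some reads is uncertain.

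Columns were mapped by sample title. The test between parents was edgeR 4.0.16 (glmQLFit, robust, and glmQLFTest, under R 4.3.3), blocked by daughter, with library size summed over alleles, on genes that reached 10 reads in at least 5 daughters. SE is the log2 difference over the root of F. DESeq2 1.42.0 served as an alternative, and others were read minimums, normalisation and leaving out each daughter. The model was tested on simulated data. Log2 ratios had 0.5 added to each count. Shares and exact tests used SciPy 1.17.1 with pandas 2.3.3 and NumPy 2.4.6 in Python 3.11.15, and plots matplotlib 3.10.9. Gene order came by symbol from RefSeq's table of another assembly, so no coordinates are given.

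Members and lists were chosen with earlier results of these data known. Named were the 3 most-read genes of each list and any called between parents or in a daughter, the 3 nearest measured genes on each side, DLK1, MEG3 (not analysed here) and the 3 most alike in ratio. Daughters are separate animals. The labels' protocol text also names a chromatin step, not used here.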

Additional observations from a re-analysis of the deposited data

Results flagged for a closer look

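In 37 groups of 4 to 10 values, 1 daughter stood apart by Dixon's gap ratio in 8. Some of these genes were named because a daughter passed a threshold or because their ratio followed that of a chaperone. Shares also rest on unlike read numbers, so the 8 cannot be set against a chance rate. None was of HSPA8 or HSP90AA1. On the HSP90AA1 chromosome, daughter 6 stood apart for DLK1 (1.74% paternal, next 96.8%) and EML1 (11.9%, next 45.5%), and daughter 5 for CKB (54.7%, next 50.1%). Among genes measured around HSPA8, daughter 7 stood apart for VWA5A (27 annotated genes between, 72.0% of 164 reads, next 54.3%). Daughter 8 did so for ESAM (54 annotated genes between, 73.3% of 30 reads, next 50.7%). ABCA3 was 73.2% in daughter 6, next 56.7%. Among co-chaperones, DNAJA3 was 18.9% in daughter 8, next 48.1%, and SUGT1 97.0% in daughter 2, next 52.3%.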

How the results depend on the processing

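Of 103 alternative values, 95 kept their direction and side of the threshold, moved by less than the spread between daughters or, for counts, stayed within 1.5 times. A count does not say which genes: of 1 gene called for the title prefix, edgeR gave CDIPT and DESeq2 gave GNAS, on opposite sides, both named after their values were seen. HSPA8 was unequal in 4 daughters, not 3, against the daughters' overall paternal shares. Leaving out each daughter gave log2 differences from -0.087 to 0.016 for HSPA8 and from -0.015 to 0.15 for HSP90AA1, mean shares from 48.4% to 50.1% and from 50.1% to 52.9%, a share difference between the genes from -0.156 to 2.91 points, and a distance difference from -0.156 to 2.64 points. The mean shares had no test, and the others had adjusted or exact permutation p above the threshold. Without daughters 6 and 8, chosen after seeing the data, the share difference was -1.17 points (exact permutation p = 0.75). Genes called between the parents numbered 0, 2 without the read filter and 0 to 1 when a daughter was left out (1 without daughter 4). At an unadjusted p under 0.05 there were 93 with edgeR, 53 with DESeq2, and 44 of 1108 with the exact sign-flip permutation test, and DESeq2 and that test called 0. With no replicate block, the daughter left out of the model, the log2 difference was -0.063 for HSPA8 and 0.072 for HSP90AA1, with 0 genes called. Measurements called unequal in a daughter numbered 2364, and 221 when only those with 1000 or more reads were tested, since fewer were tested. Depth limits daughter 3 for HSPA8 and daughters 1 and 7 for HSP90AA1.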
